A study of Mus musculus with 6 samples.

Results

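Sarcomeric myosin light chains are the small subunits that clasp the neck of the muscle myosin motor. The 7 genes described here were Myl1, Myl3, Myl4 and Myl6b of the essential class and Mylpf, Myl2 and Myl7 of the regulatory class, chosen by name, and every probe set annotated to exactly 1 of these symbols was taken, 10 of 22690 on the array. They are 7 of the 12393 genes that such probe sets read. A probe set is a group of short probes that reads 1 transcript or a few. Transcripts were measured in 3 samples of superficial masseter, which closes the jaw in chewing, and 3 of tibialis anterior, a muscle of the lower limb. All 6 came from normal adult female C57Bl/6 mice, 6 months old, with no treatment named for either muscle, and the design asked how masticatory and limb muscle differ. The deposited values were linear signal intensities, 1 array per sample. Nothing in the labels tells if each sample was taken from its own mouse, so the p-values measure only the spread between these samples, which may be technical.

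A sarcomeric myosin molecule joins a pair of heavy chains, each of which carries 1 essential and 1 regulatory light chain on the lever arm between motor head and tail. The essential chain stiffens the lever and tunes how fast actin slides, and the regulatory chain can be phosphorylated, which raises force at a given calcium level. Adult fast fibres use Myl1 and Mylpf. Slow fibres share Myl3 and Myl2 with the heart's ventricles, Myl4 and Myl7 are the atrial pair, Myl4 also serves developing skeletal muscle, and Myl6b is an essential chain of slow and non-muscle cells. In the mouse both masseter and tibialis anterior are known as mainly fast muscles.

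The tibialis anterior held far more transcript of the slow and ventricular chains Myl3 and Myl2 than the masseter, while the fast chains Myl1 and Mylpf were read at almost the same high signal in both muscles. Myl3 was 60.3-fold lower in the masseter by its brightest probe set and 23.5-fold lower by 1428266_at, a separately designed one, and Myl2 was at least 12.8-fold lower. In bulk tissue, fewer fibres of a type and less RNA per fibre cannot be told apart. The atrial and embryonic chain Myl4 stood at about 2.07-fold less signal in the masseter and did not pass the test. Myl7 and Myl6b were close to the bottom of the scale. Each difference is given as masseter minus tibialis anterior on the log2 scale, with the standard error (SE) of limma's fit, n = 3 per muscle, and a gene passed when its p adjusted over all 13576 probe sets kept by a filter on low signal was under 0.05. That filter lay at a signal of 28.6. The masseter signals of the brightest Myl3 probe set, 33.6 to 81.3, lay not far above it, so the 60.3-fold is a ratio to low signals. With 16 added to every signal, the Myl3 difference was -5.50 instead of -5.91 on the log2 scale.

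Because Myl3 had the greatest difference of these genes, the 250 bases before its annotated start are shown. Beside them are the 250 bases before an annotated start of Myl1 and of Mylpf, the fast chains of high signal in both muscles. The windows come from RefSeq sequence of build GRCm38.p6, in which all 7 genes matched by symbol, and run 5′ to 3′ on the gene's strand. Capitals mark matches on either strand to the E-box CANNTG, the TATA box TATAAA, the M-CAT element CATTCC, the GATA element GATAA, the CArG box and the MEF2 site, motifs known from muscle promoters. E-boxes are bound by factors of the MyoD family, M-CAT elements by TEAD factors and CArG boxes by serum response factor. The A and T letters of a TATA box, CArG box and MEF2 site can overlap, and 0 matches overlap in these 3 windows. The Myl3 window is chr9:110763428-110763677 on the plus strand. That of Myl1 is chr1:66945057-66945306 on the minus strand, and that of Mylpf chr7:127211358-127211607 on the plus strand. Only the Myl3 window of these 3 lies just outside its gene's annotated span. The Myl1 window lies inside its span (66924295 to 66947932), as does that of Mylpf (127208848 to 127214288). Both thus precede a start within the gene, and which start these muscles use was not tested.
Myl3: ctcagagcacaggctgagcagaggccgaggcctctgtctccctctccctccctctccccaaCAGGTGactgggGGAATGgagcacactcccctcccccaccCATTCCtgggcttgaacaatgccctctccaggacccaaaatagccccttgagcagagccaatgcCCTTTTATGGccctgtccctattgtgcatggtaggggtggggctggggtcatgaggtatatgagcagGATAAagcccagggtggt
Myl1: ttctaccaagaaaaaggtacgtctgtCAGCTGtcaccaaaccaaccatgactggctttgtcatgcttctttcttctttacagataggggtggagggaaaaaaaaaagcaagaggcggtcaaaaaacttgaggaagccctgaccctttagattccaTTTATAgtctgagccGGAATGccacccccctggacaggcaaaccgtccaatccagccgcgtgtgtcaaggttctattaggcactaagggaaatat
Mylpf: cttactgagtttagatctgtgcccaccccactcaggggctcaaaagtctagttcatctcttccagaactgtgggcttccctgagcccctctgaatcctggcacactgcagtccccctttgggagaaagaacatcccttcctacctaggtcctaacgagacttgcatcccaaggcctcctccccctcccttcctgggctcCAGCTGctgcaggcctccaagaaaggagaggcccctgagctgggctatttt

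The Myl3 window holds the CArG box CCTTTTATGG, which lies 85 to 76 bases before the start, with 2 M-CAT elements, 1 E-box and 1 GATA element. A CArG box is found in 1.47% of 32851 windows of the same length in the table, an M-CAT element in 12.6%, an E-box in 66.2%, a GATA element in 22.6% and a TATA box in 12.4%. The Myl1 window has 1 E-box, 1 M-CAT element and 1 TATA box, and the Mylpf window 1 E-box. Among the other members, the Myl7 window also holds a CArG box, 61 to 52 bases before the start. The Myl4 window holds 0 of these motifs, and it too lies inside its gene's span (104546017 to 104587215). The table lists 2 starts for Myl2, whose windows hold 3 E-boxes, 1 GATA element and 1 TATA box between them. A MEF2 site, found in 2.92% of windows, is in 0 of the 8 member windows. These matches are descriptions of the letters and were not tested as binding sites.

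**Figure D1:**
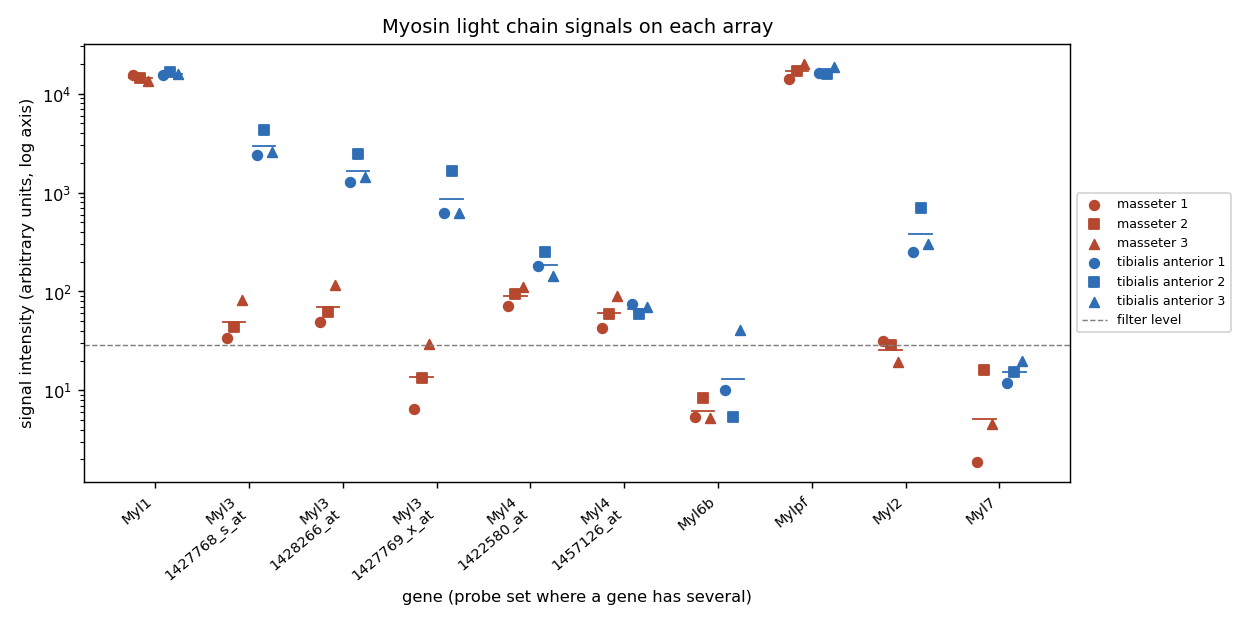
Signal intensity (arbitrary units, log axis) of the 10 probe sets of the 7 light chain genes on each of 6 arrays, with a short line at the mean of log2 signal of each muscle and the filter level of 28.6 dashed. The 3 probe sets of Myl3 and that of Myl2 separate the muscles widely, and those of Myl1 and Mylpf lie at the top of the scale in both.

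Of the essential chains, Myl1 is the one of adult fast fibres. Its signals were 15439.5, 14560.4 and 13335.5 on masseter arrays 1 to 3 against 15332.7, 16418.5 and 15707.8 on tibialis anterior arrays 1 to 3. The ranges overlapped, since masseter 1 exceeded tibialis anterior 1. The difference was -0.13 ± 0.11 (adjusted p = 0.676), with a sign that turned under quantile normalization, at 0.035. The probe set lay at 58.8% to 83.6% of the highest signal on its array, where brightness may approach its limit and a difference can be understated. Myl1 makes a long and a short protein from alternative promoters, and this 1 probe set does not tell them apart.

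Myl3, the essential chain of slow fibres and ventricle, was read by 3 probe sets. The brightest gave 33.6, 44.2 and 81.3 on masseter arrays 1 to 3 against 2422.1, 4268.7 and 2556.7 on tibialis anterior arrays 1 to 3. The lowest tibialis array was far above the highest masseter array, masseter 3. The difference was -5.91 ± 0.28 (adjusted p = 7.64e-05), which ranked 2nd in size among the 13576 probe sets. The only larger one was that of another Myl3 probe set, 1427769_x_at, at -5.97. By the brightest probe set the difference was -6.17, -6.59 and -4.98 in the pairs numbered 1, 2 and 3.

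The other probe sets of Myl3 gave the same order of muscles. That named 1428266_at, designed from another transcript record, read 49, 61.5 and 116 on masseter arrays 1 to 3. It read 1286.7, 2469.2 and 1424.3 on tibialis anterior arrays 1 to 3, a difference of -4.55 ± 0.29 (adjusted p = 0.000383). The third, 1427769_x_at, shares its design record with the brightest, so that it is not an independent reading. It read 6.5, 13.4 and 29.3 in the masseter and 620.2, 1638.4 and 615.7 in the tibialis anterior, and it was lower in the masseter by at least 29.7-fold (adjusted p = 0.000801). Here the lower bound sets each masseter array under the filter level to that level. In all 3 probe sets masseter 3 was the highest masseter array and tibialis anterior 2 the highest tibialis array.

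Myl4, the essential chain of atrium and of developing skeletal muscle, gave mixed readings. Its brighter probe set had signals of 71.9, 93.7 and 110 on masseter arrays 1 to 3 against 181.6, 251.5 and 143.7 on tibialis anterior arrays 1 to 3. The muscles did not overlap, with masseter 3 the nearest to tibialis anterior 3. The difference of -1.05 ± 0.25 did not pass (adjusted p = 0.102), and it passed only without the arrays numbered 3, at -1.38 (adjusted p = 0.0406). The other probe set had 42.4, 59.5 and 89 in the masseter and 74.2, 59.5 and 68.9 in the tibialis anterior. These overlapped fully, with a difference of -0.15 ± 0.30 (adjusted p = 0.891) whose sign turned in 3 of 16 alternatives.

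Myl6b, the essential chain of slow and non-muscle cells, was under the filter level on 5 of 6 arrays. Its signals were 5.4, 8.4 and 5.3 on masseter arrays 1 to 3 against 10.1, 5.4 and 40.3 on tibialis anterior arrays 1 to 3. Only tibialis anterior 3 rose above the level, and the muscles overlapped. The gene was left out by the filter and so has no test in the main comparison. Fitted without the filter it had an adjusted p of 0.770.

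Among the regulatory chains, Mylpf, that of fast fibres, had signals of 14077.3, 16925.2 and 20011.5 on masseter arrays 1 to 3. On tibialis anterior arrays 1 to 3 it had 16117.9, 15894.7 and 18529.1. The masseter arrays enclosed the tibialis range on both sides. The difference was 0.00 ± 0.11 (adjusted p = 0.996), with a sign that turned when arrays were centred on skeletal muscle genes. This probe set too lay high on the scale, at 73.7% to 88.4% of its array's highest signal.

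Myl2, the regulatory chain of slow fibres and ventricle, had signals of 31.5, 28.6 and 19.2 on masseter arrays 1 to 3 against 253.3, 695.5 and 304.3 on tibialis anterior arrays 1 to 3. Every tibialis array exceeded every masseter array, and tibialis anterior 2 was the highest, as for Myl3. The masseter mean of 25.9 lay under the filter level, with 2 of the 3 arrays below it, so the fitted difference of -3.87 ± 0.30 (adjusted p = 0.00114) may be imprecise on that side. Set to the level, the fold was at least 12.8. The call ended with limma's eBayes step run without an intensity trend (adjusted p = 0.062). The order of the masseter arrays, with masseter 1 highest, was the opposite of that of Myl3.

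Myl7, the atrial regulatory chain, was under the filter level on all 6 arrays. It read 1.9, 16 and 4.6 on masseter arrays 1 to 3 against 11.8, 15.5 and 20 on tibialis anterior arrays 1 to 3. Masseter 2 lay among the tibialis arrays. Without the filter the adjusted p was 0.587.

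In all, 5 of the 7 genes and 8 of the 10 probe sets passed the filter. Of those 5 genes, each read by its brightest probe set, 2 were lower in the masseter and 0 higher, where 1.18% of all probe sets kept were called, 0.619% lower and 0.56% higher. Of all 10 probe sets, 5 had muscles that did not overlap, each lower in the masseter. They were all those of Myl3, that of Myl2 and the brighter of Myl4, so Myl3 is counted more than once. Beside them, 14.4% of all probe sets other than controls did not overlap, and 6.75% were lower in the masseter without overlap. The genes were chosen with earlier results of these data known, so these counts describe the family.

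Whether the chains changed by unequal amounts was tested within arrays, as the log2 signal of a chain minus that of the fast chain of its class. The exact permutation test over 3 arrays against 3 cannot go below p = 0.1. For Myl3 relative to Myl1, masseter minus tibialis anterior was -5.78 on the log2 scale, with group means of -8.19 ± 0.76 (SD, n = 3) and -2.41 ± 0.40 (SD, n = 3) and an exact two-sided permutation p of 0.1 (0.167 adjusted over the 5 comparisons). For Myl2 relative to Mylpf the muscles also separated (exact p = 0.1, adjusted 0.167). Because 2 of the 3 masseter signals of Myl2 were under the filter level, and Mylpf lay near the top of the scale, the size of -3.87 is imprecise. With signals under the level set to it, an alternative chosen after the values were seen, the difference was -3.68. Both ratios were lower in 3 of 3 masseter arrays than in any tibialis array. Myl4 against Myl1 gave -0.92 by the brighter Myl4 probe set, also without overlap (exact p = 0.1, adjusted 0.167). With the mean over the Myl4 probe sets, whose other member had overlapping signals, it was -0.46. The ratios of Myl6b to Myl1 (exact p = 0.5, adjusted 0.5) and of Myl7 to Mylpf (exact p = 0.2, adjusted 0.25) overlapped. Since Myl6b and Myl7 were under the filter level on 5 and 6 of the 6 arrays, no size is read from them.

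**Figure D2:**
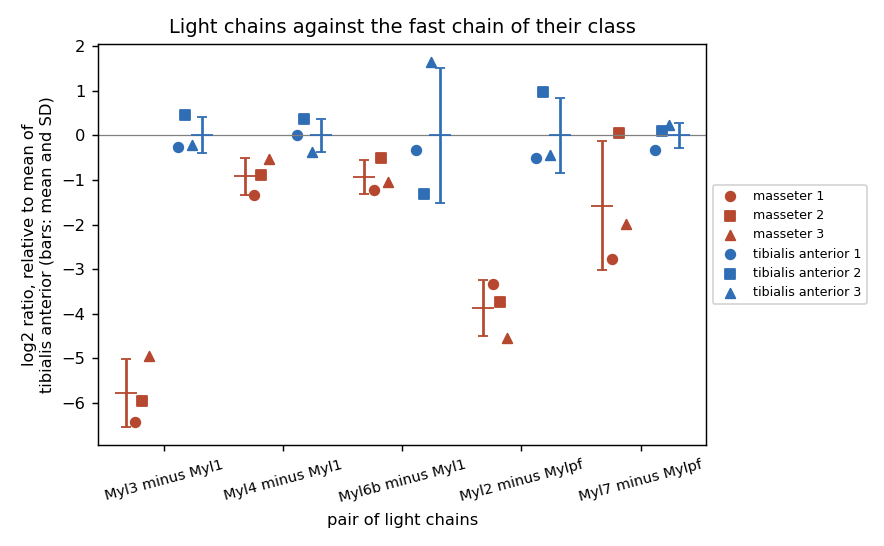
Log2 ratio of each light chain to the fast chain of its class on each array, set relative to the mean of the tibialis anterior, with mean and SD beside the points of each muscle (n = 3). Each chain is read by its brightest probe set, and the other probe set of Myl4, whose signals overlapped, is not shown. The ratios of Myl3, Myl2 and Myl4 separate the muscles, by -5.78, -3.87 and -0.92, and those of Myl6b and Myl7 overlap. Signals under the filter level, which are those of Myl7 on all 6 arrays, of Myl6b on 5 and of Myl2 on 2 masseter arrays, make the size of these ratios imprecise.

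The genes whose profiles over the 6 arrays were most like those of Myl3 and Myl2 were taken by the root mean square distance between log2 profiles, each centred on its own mean. The nearest to Myl3 was Ankrd1, a stress-responsive ankyrin-repeat protein, at 1.00 log2 units, and the second was Myl2, at 1.20. The homeobox genes Hoxc4 and Lbx1 and Mybph, a myosin-binding protein, followed at 1.62, 1.66 and 1.68. For Myl2 the nearest was Lbx1, a homeobox factor needed by the precursors that migrate into the limb bud, at 0.68, then Ankrd1 at 0.80, Padi2 at 0.84, Il15 at 0.88 and Zfp503 at 0.92. Ankrd1 read 30.2, 17.2 and 34.7 on masseter arrays 1 to 3 against 548.7, 399.2 and 611.8 on tibialis anterior arrays 1 to 3, so that within the tibialis anterior its lowest array was the one where Myl3 and Myl2 were highest. The distance is dominated by the difference between muscles, which has the same direction in all these genes. With 6 arrays in 2 groups there is no separate measure of likeness within a muscle. Mybph did not pass (adjusted p = 0.0722), and the Hoxc4 call (adjusted p = 0.0458) held in 4 of 13 alternatives. For Hoxc4 and Il15, 2 masseter arrays were under the filter level, and for Mybph 1, so these profiles are imprecise there.

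**Figure D3:**
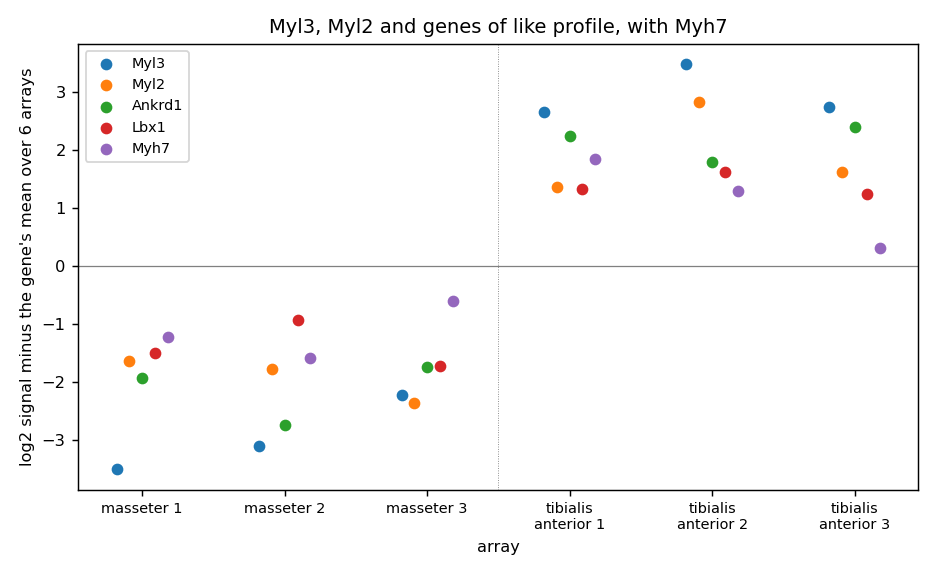
Log2 signal minus each gene's own mean over the 6 arrays for Myl3, Myl2, Ankrd1, Lbx1 and the slow heavy chain Myh7. All 5 lie below 0 in the masseter and above 0 in the tibialis anterior, and tibialis anterior 2 is the highest array for Myl3, Myl2 and Lbx1. In the masseter, 2 of 3 arrays of Myl2, Lbx1 and Myh7 and 1 of Ankrd1 were under the filter level, where values are imprecise.

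The heavy chains that these light chains join went in both directions. Of 6 sarcomeric heavy chains kept, Myh4, the fast IIB chain, was lower in the masseter (-1.47 ± 0.14, adjusted p = 0.00265), Myh8, the perinatal chain, was higher (5.57 ± 0.27, adjusted p = 7.64e-05), and 4 did not pass. The slow chain Myh7, the usual partner of Myl3 and Myl2, read 18.8, 14.5 and 28.8 on masseter arrays 1 to 3 against 157, 107.4 and 53.9 on tibialis anterior arrays 1 to 3. The muscles did not overlap, and 2 of the 3 masseter arrays lay under the filter level, for a fold of at least 3.38. The difference of -2.29 ± 0.46, imprecise on that side, did not pass (adjusted p = 0.0671). It passed in 3 of 17 alternatives, without the replicate block (adjusted p = 0.0467), without the arrays numbered 3 (-2.98, adjusted p = 0.0102) and, with no block, without tibialis anterior 3 (-2.71, adjusted p = 0.0333). Tibialis anterior 1 was the highest array for Myh7, where Myl3 and Myl2 were highest in tibialis anterior 2. The other fast chains had differences of 0.07 ± 0.13 for Myh1 (adjusted p = 0.877) and 0.21 ± 0.16 for Myh2 (adjusted p = 0.659), whose signs turned when the arrays numbered 3 and 1, respectively, were left out. The mean over the probe sets of Myh1 gave 0.49 (adjusted p = 0.251). Its brightest probe set lay at 74.2% to 92.7% of its array's highest signal, where a difference can be understated.

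Most other slow-fibre genes did not pass the threshold. Of 10 kept, 1 was lower in the masseter, the carbonic anhydrase Car3 (-1.89 ± 0.11, adjusted p = 0.000225), 0 were higher and 9 did not pass. The median difference was -0.71, beside 0.02 over all probe sets kept. The slow troponins switch on the thin filament with calcium. They gave -1.05 ± 0.22 for Tnnc1 (adjusted p = 0.0748), -1.11 ± 0.62 for Tnni1 (adjusted p = 0.519) and -0.54 ± 0.35 for Tnnt1 (adjusted p = 0.585). For Tnni1, 2 of the 3 masseter arrays were under the filter level, so its size is imprecise. Both Tnni1 and Tnnt1 overlapped between the muscles. Apart from Myh7, the rest of the list gave -0.885 for Myoz2, -0.135 for Tpm3, -0.011 for Pln, 0.001 for Casq2 and 0.233 for Atp2a2. Of the 12 fast-fibre genes, Myh4 and the alpha-actinin Actn3 (-0.88 ± 0.15, adjusted p = 0.0342) were lower and 0 higher, with 10 short of the threshold and a median of -0.20. Among those short of it, Myoz1 was higher in the masseter without overlap (0.49 ± 0.12, adjusted p = 0.107). Of 9 genes of atrium and ventricle, 3 were kept, and the cardiac actin Actc1 was lower (-1.56 ± 0.21, adjusted p = 0.0136). Sln and Mybpc3, also kept, gave -1.84 and 0.34 and did not pass, each with 1 array under the filter level. Nppb, left out by the filter, went the other way without overlap. It read 34, 32.9 and 37.5 in the masseter and 9, 5.7 and 7 in the tibialis anterior, the latter all under the filter level. Myh6, the atrial heavy chain, was under the filter level on all 6 arrays. The Actn3 call held in 9 of 18 alternatives and the Actc1 call in 13.

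**Figure D4:**
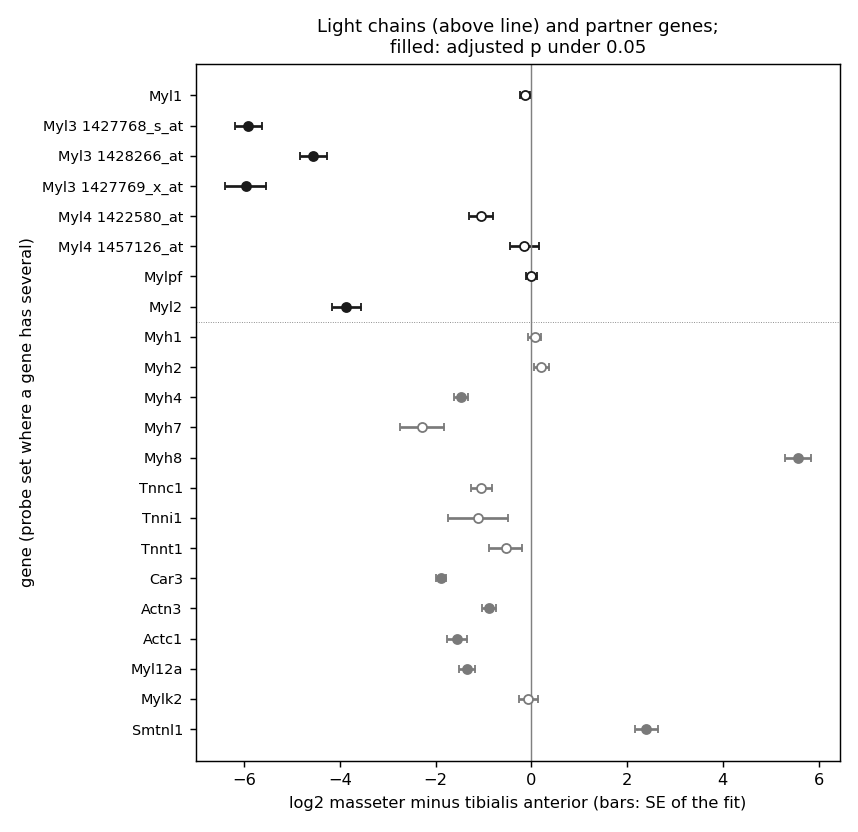
Log2 masseter minus tibialis anterior with the SE of limma's fit for the 8 light chain probe sets kept (above the dotted line) and 14 partner genes, filled where the adjusted p was under 0.05. Myl3 lies at -5.91 and Myl2 at -3.87, while Myl1 and Mylpf lie near 0 and the slow heavy chain Myh7 at -2.29. For Myl2, Myh7, Tnni1 and the Myl3 probe set 1427769_x_at, 2 of 3 masseter arrays were under the filter level, so their sizes are imprecise.

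Among the light chains of smooth muscle and non-muscle myosin, which lie outside the sarcomeric family, Myl12a was lower in the masseter. Myl12a, a regulatory chain of non-muscle myosin, read 1803.5, 2161.1 and 1908.9 on masseter arrays 1 to 3 against 3906.2, 4653 and 6639.5 on tibialis anterior arrays 1 to 3. The muscles did not overlap, and the difference was -1.34 ± 0.16 (adjusted p = 0.0093). Its other probe set gave -1.55 ± 0.20 (adjusted p = 0.0116), also without overlap. The Myl12a call ended with eBayes without a trend. Of the 5 such genes kept, 1 was lower, 0 were higher and 4 did not pass, namely Myl6, Myl9, Myl10 and Myl12b, with a list median of -0.35.

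Of the genes that control phosphorylation of regulatory light chains, 5 of 12 were read by a probe set of a single symbol and kept. Smtnl1, a smoothelin-like protein that acts on the myosin phosphatase, was higher in the masseter (2.40 ± 0.25, adjusted p = 0.00442), 0 were lower and 4 did not pass. Mylk2, the skeletal muscle light chain kinase, read 125.4, 110.3 and 213 on masseter arrays 1 to 3 against 123.1, 150.7 and 179.8 on tibialis anterior arrays 1 to 3. The ranges overlapped, with a difference of -0.06 ± 0.20 (adjusted p = 0.936) and a sign that turned in 5 of 18 alternatives.

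The samples carried the markers of skeletal muscle in both groups, and 0 of 5 of these markers passed, with a median of -0.09. Of the salivary gland markers, 9 of 10 were read, their summed signal ran from 3257 to 49720 in the masseter and from 2447 to 5801 in the tibialis anterior, and 2 of 5 kept, Pip and Smr3a, were higher in the former. Of the adipocyte markers 1 of 3 kept, Adipoq, was higher, and these 3 calls ended without the replicate block. Pip and Smr3a overlapped between the muscles, and Pip lay under the filter level on 1 masseter array and 2 tibialis arrays. Smr2, also kept, went the other way and did not pass (-0.645 ± 0.25, adjusted p = 0.327). It gave 2123.3 of the summed 3257 on masseter 3. Smooth muscle, erythroid and immune markers had 0 of 5, 0 of 1 and 0 of 4 past the threshold. The masseter array of most salivary signal, masseter 1, had the lowest Myl3 and the highest Myl2. Without it, in a fit with no replicate block, the differences were -5.64 for Myl3 and -4.01 for Myl2, and with the salivary signal as a covariate -5.51 and -4.01. For the Gapdh control, the signal at the 3′ end over that at the 5′ end, a sign of RNA integrity, was 2.46 to 2.92 in the masseter and 1.87 to 2.07 in the tibialis anterior. The same ratio for the Actb control was 2.71 to 3.34 and 2.59 to 2.79, which overlapped. The part of RNA integrity in the light chain differences was not tested.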

How the data were processed

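Total RNA was amplified and read on 1 Affymetrix short-oligonucleotide array per sample. The authors deposited linear signal intensities, and MAS5 and GCOS are named in the submitters' processing notes without version or settings. The 2% trimmed mean ran from 149.6 to 150 over the 6 arrays, so no scaling was added. Detection calls were not used here. The number of arrays limits the precision.

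Gene symbols came from the platform annotation and were checked by gene identifier against a RefSeq table of GRCm38.p6. The check changed 0 symbols, and 29 that it could not place were kept. Signals under 1 were set to 1 and log2 taken. The 64 controls were left out, and the 13576 probe sets with a mean log2 at or above the 40th percentile were kept. limma 3.58.1 in R 4.3.3 (lmFit, eBayes with trend, two-sided) was fitted with the replicate number as a fixed block, because the design text describes paired comparisons. That text names SAM, which was not run here. P-values were adjusted over the 13576 by Benjamini-Hochberg. Where an array lay under the filter level, a fold was computed with that array at the level and is written "at least". The procedure was run on simulated data whose spread followed the mean signal. That run therefore could not test the choice of an intensity trend.

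Named genes were all members, the 5 nearest profiles of each member past the threshold, up to 4 genes past the threshold of each partner list, and a fixed set of heavy chains, slow troponins, Mylk2 and Smtnl1. Each gene was read by its brightest probe set. Members and lists were chosen with earlier results of these data known. Alternatives covered the block, trend, filter, normalization, floor, a muscle gene reference, a salivary covariate, the probe set rule and left-out arrays.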

Additional observations from a re-analysis of the deposited data

How the results depend on the processing

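The Myl3 call held in all 18 alternatives run, with differences from -6.38 to -5.48, and the Myl2 call in 17 of 18, from -4.30 to -3.23. With eBayes without trend, Myl2 kept its difference of -3.87 and missed the threshold, which left 1 member called, and 13 probe sets of the whole table instead of 160. The calls of Myh4, Car3, Actn3, Actc1, Myl12a and Smtnl1 ended there too. Myl4 passed only without replicate 3, at -1.38. With both arrays of a number left out it ran from -1.38 to -0.86, and its second probe set from -0.40 to 0.19, which also stood at 0.17 under the salivary covariate and at 0.11 without masseter 1. The signs of the fast chains and of some partners turned, none past the threshold. Myl1 stood at 0.035 under quantile normalization. Mylpf stood at -0.002 centred on skeletal muscle genes, from -0.052 to 0.10 without the arrays of a number, and at -0.002, -0.12, -0.028 and -0.038 without masseter 2 or 3 or tibialis anterior 1 or 2. Without the arrays of a number, Myh1 ran from -0.10 to 0.19, Myh2 from -0.044 to 0.35 and Mylk2 from -0.21 to 0.14. Without 1 array, Myh1 was -0.083 (masseter 3), Myh2 -0.13 (tibialis anterior 1) and Mylk2 0.037, 0.13 and 0.074 (masseter 1 or 2, tibialis anterior 3). Under the salivary covariate Mylk2 was 0.19 and Smr3a -0.079. The cause was not tested. The count of all probe sets called was 80 with the covariate and no block, and 47 to 188 with arrays left out, where single arrays were dropped in fits without the block. Without masseter 1, 2 and 3 it was 78, 47 and 75, and without tibialis anterior 1, 2 and 3 it was 63, 65 and 57. Without the replicate block 138 were called, Myl3 and Myl2 kept their calls (adjusted p = 9.65e-05 and 0.00115) and no other member gained one, while the partner Myh7 did. Deviations from the muscle means correlated at 0.04, 0.15 and 0.10 within the pairs numbered 1, 2 and 3. Between arrays of unlike number the correlations ran from -0.16 to 0.05. The mean log2 signal of the salivary markers fell from number 1 to number 3 in both muscles. It went from 9.99 to 5.55 in the masseter and from 6.53 to 4.74 in the tibialis anterior. What the arrays of a number share was not tested. The within-number differences of the isoform ratios, tested by exact sign flips over 3 pairs, cannot go below p = 0.25, and the Myl3 to Myl1 and Myl2 to Mylpf ratios gave -5.78 and -3.87 there, each with that p. Low signal limits Myl6b, Myl7 and the masseter side of Myl2.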
